A study of Mus musculus with 30 samples.

Results

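Voltage-gated sodium channel subunits were followed as 7 genes chosen by name, Scn1a, Scn2a, Scn3a and Scn8a for the pore and Scn2b, Scn3b and Scn4b for the accessory subunits, out of 55335 genes counted. RNA bound to tagged ribosomes (RiboTag, RT) was purified with an anti-HA antibody from nucleus accumbens punches of female mice. D1-Cre-RT mice tag the medium spiny neurons (MSNs) that express the dopamine D1 receptor, and A2A-Cre-RT mice tag those that express the adenosine A2A receptor, the class that also carries the D2 receptor and is called D2 here. Each class had a Control group and 2 groups exposed to chronic witness defeat stress (CWDS), which were divided by social interaction score into Resilient and Susceptible. All 6 groups had 5 libraries, each from a pool of 4 mice with similar scores, with tissue taken 24 h after the interaction test. The labels give neither mouse age nor background strain. Pooling means that the spread between libraries is a spread between pools of mice, and every p-value below measures that spread. In RNA of this kind, fewer tagged cells and less RNA per cell cannot be told apart.

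Voltage-gated sodium channels open on depolarization and carry the rising phase of the action potential. One large alpha subunit forms the pore and voltage sensors, and small beta subunits with a single membrane span tune gating and bind cell adhesion partners. In neurons the channels cluster at the axon initial segment, where ankyrin G anchors them. Medium spiny neurons are long known as strong expressers of the beta subunit gene Scn4b, which supplies the peptide that blocks open channels in resurgent current.

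On the GRCm38 build with GENCODE M21 gene models, 3 alpha genes lie on chromosome 2, Scn3a at chr2:65457118-65567627 on the minus strand, Scn2a at chr2:65620771-65767447 on the plus strand and Scn1a at chr2:66270778-66440840 on the minus strand. Scn8a lies at chr15:100869858-101045938 on the plus strand. All 3 beta genes lie on the plus strand of chromosome 9, Scn3b at chr9:40269217-40291618, Scn2b at chr9:45117782-45130070 and Scn4b at chr9:45138395-45154152. No exon of a member overlaps an exon of another annotated gene.

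The alpha genes are close copies in parts of their coding sequence, which matters for counting reads. The longest identical coding run was 188 bases between Scn1a and Scn2a, 143 bases between Scn3a and either of them, and 37 to 55 bases between Scn8a and the other 3. Between beta genes it was at most 13 bases. Of all 50-base coding windows, 7.64% in Scn1a, 11.5% in Scn2a and 14.0% in Scn3a also occurred in another of the sodium channel genes searched, against 0.101% in Scn8a and 0 in Scn2b, Scn3b and Scn4b. At 100 bases the shares were 1.70%, 2.28% and 4.86% for Scn1a, Scn2a and Scn3a, and 0 for the others. No source used here gives the read length, so the share of reads that could be assigned to either copy is unknown, and the levels of Scn1a, Scn2a and Scn3a are uncertain to that extent.

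Libraries held 28996168 to 65882152 gene counts. All 7 members were among the 19368 genes kept for testing, and the lowest member count in any library was 810, for Scn1a. In D1 Susceptible replicate 1, the single gene Gm42418 took 54.9% of gene counts and 41.2% of reads fell outside genes. D2 Susceptible replicates 1 and 2 detected 15822 and 16525 genes, against 19440 to 22375 in the other 28 libraries. Drd1, the D1 receptor gene, was at 377 to 616 CPM (gene counts scaled to library size) in the D1 libraries and at 50.3 to 414 CPM in the D2 libraries, with the highest D2 value in D2 Resilient replicate 5. Drd2 ran from 49.8 to 143 CPM in D1 and from 205 to 572 CPM in D2. Results that rest on these 4 libraries are given with and without them.

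**Figure D1:**
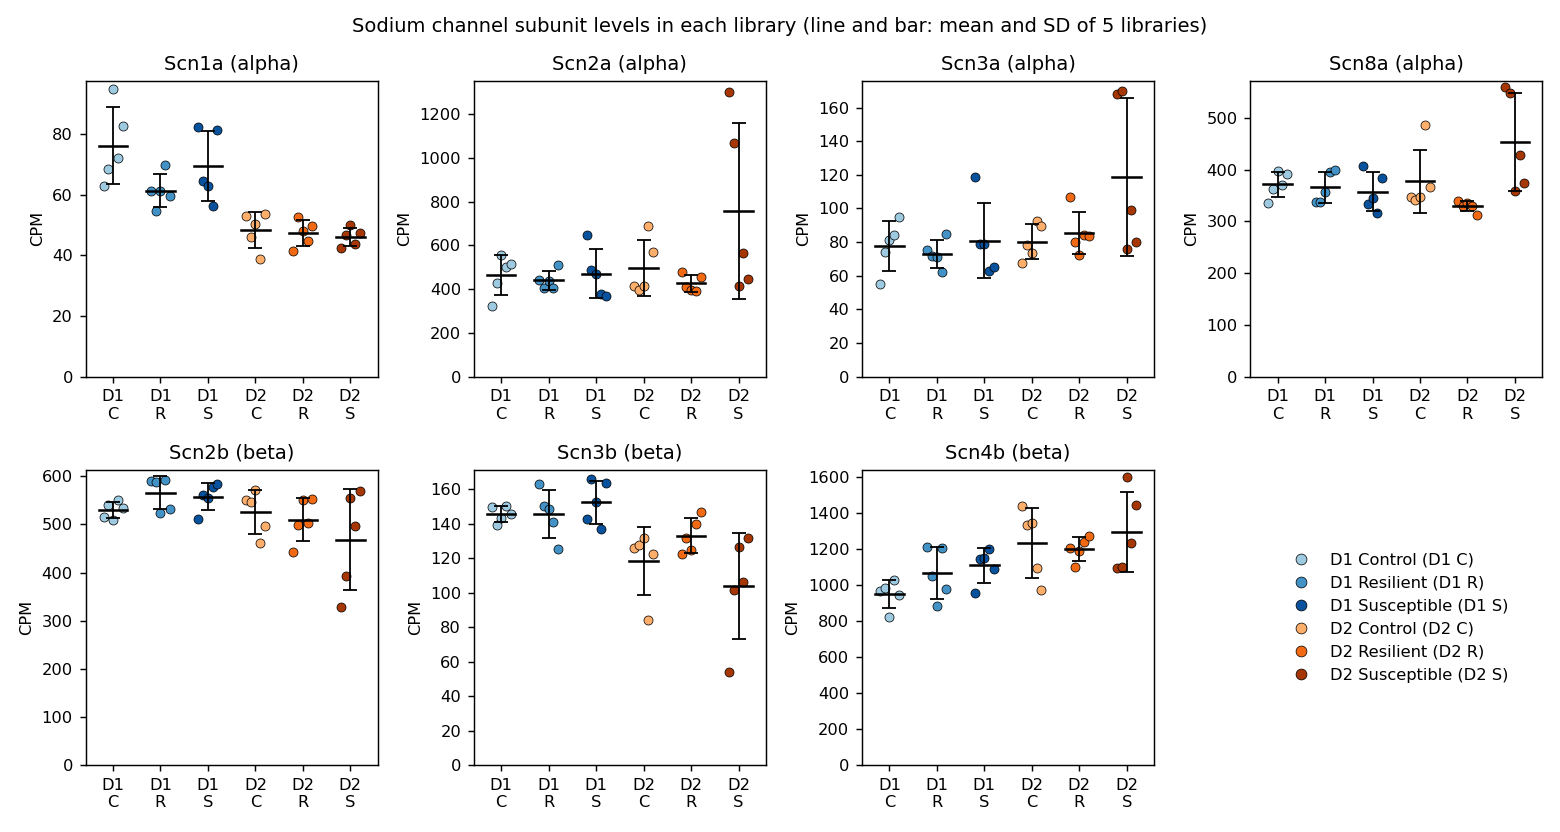
Level of each sodium channel subunit in CPM on TMM-scaled library sizes (vertical axis, from 0) in 6 groups (horizontal axis). Each point is 1 library, and the line and bar are the mean and SD of 5 libraries; Scn1a is at 54.6 CPM or more in every D1 library and at 53.5 CPM or less in every D2 library, and 2 D2 Susceptible libraries lie far above the rest for Scn2a and Scn3a.

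Compared per kilobase of exon, Scn2a was the most abundant alpha subunit and Scn4b the most abundant beta subunit in all 6 groups. Scn2a, which encodes Nav1.2, made up 51.6% ± 4.33 (SD, n = 30 libraries) of the summed alpha level per kilobase, and Scn8a, which encodes Nav1.6, made up 32.1% ± 3.20. Scn3a (Nav1.3) made up 9.08% ± 0.983 and Scn1a (Nav1.1) 7.21% ± 2.00. Those last 2 overlapped across all libraries and within each D1 group. Within each D2 group every Scn3a share lay above every Scn1a share, in D2 Control at 7.74% or more against 7.30% or less. On the beta side, Scn4b made up 62.4% ± 4.40 of the summed level per kilobase, Scn2b 30.9% ± 3.24 and Scn3b 6.70% ± 1.29. Against the length of the longest transcript instead of the exon union, Scn3b took 8.62%. Scn1a took 9.36% ± 0.683 of the alpha sum in D1 Control and 6.09% ± 1.45 in D2 Control (n = 5 each). Scn4b took 57.5% ± 1.56 of the beta sum in D1 Control and 64.6% ± 2.67 in D2 Control. The summed alpha level was 73.0 ± 10.8 CPM per kilobase in D1 Control and 73.7 ± 14.0 in D2 Control, a difference smaller than the spread.

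**Figure D2:**
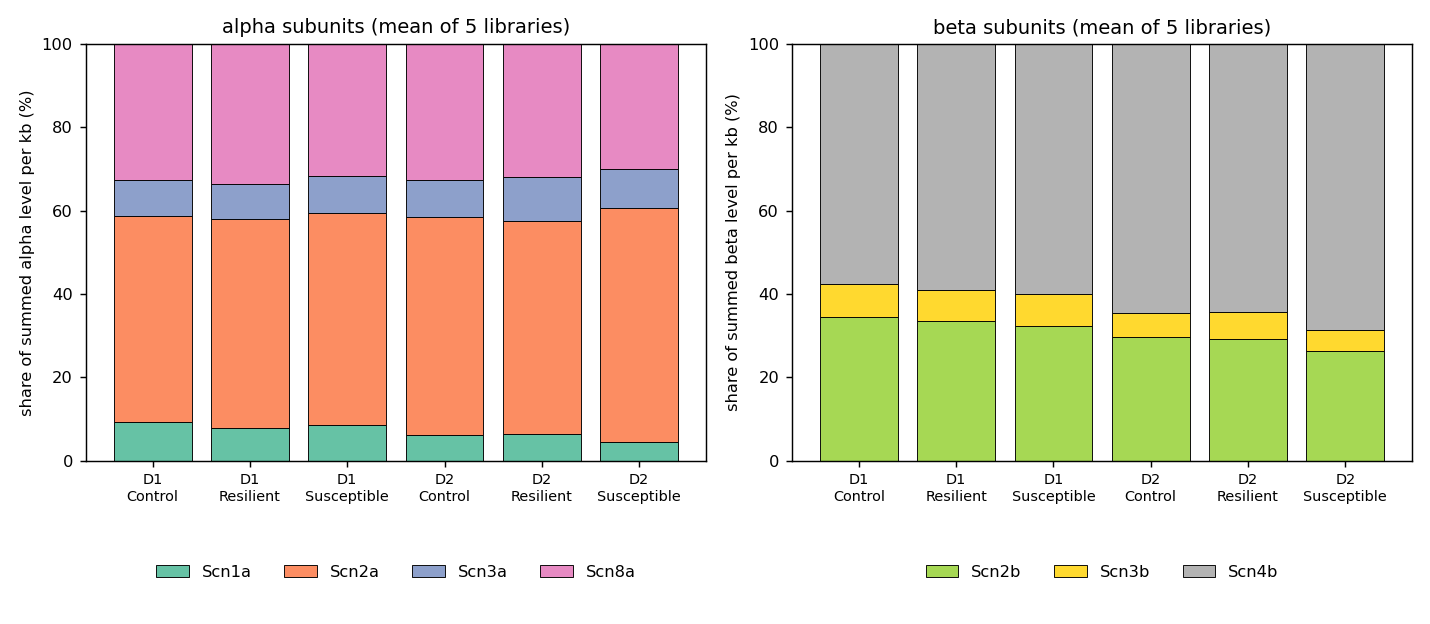
Share of each subunit in the summed level per kilobase of exon (vertical axis, percent) of the 4 alpha genes (left) and the 3 beta genes (right), as the mean of 5 libraries in each of 6 groups. Scn2a and Scn4b take the largest share in each group, and Scn4b takes 57.5% in D1 Control and 64.6% in D2 Control.

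The member that separated the neuron classes most clearly was Scn1a, the Nav1.1 subunit, best known from fast-spiking interneurons. In D1 Control libraries it was at 62.9, 68.6, 94.6, 71.9 and 82.6 CPM, and in D2 Control at 52.8, 46.2, 50.3, 38.9 and 53.5 CPM. In D1 Resilient it was at 61.3, 54.6, 61.1, 69.8 and 59.4 CPM, against 41.5, 52.6, 47.9, 44.5 and 49.6 CPM in D2 Resilient. In D1 Susceptible it was at 82.2, 64.5, 62.9, 56.4 and 81.2 CPM, against 42.5, 46.7, 49.9, 43.6 and 47.2 CPM in D2 Susceptible. All 15 D1 libraries lay above all 15 D2 libraries, with no overlap in any stress group. Such complete separation of the 2 classes, in either direction, held for 229 of 19368 genes tested, or 1.18%. The D1 minus D2 log2 difference averaged over the 3 stress groups was 0.54 with an SE of 0.06, a 1.45-fold higher level in D1 (adjusted p = 8.3e-08, edgeR quasi-likelihood test with Benjamini-Hochberg adjustment). By group it was 0.65 in Control (adjusted p = 0.00017), 0.37 in Resilient (adjusted p = 0.0343) and 0.59 in Susceptible (adjusted p = 0.00034), each by the same edgeR test. Scn1a stayed called in Control and Susceptible when any 1 library was left out. In Resilient the call was lost on leaving out D1 replicate 1 (adjusted p = 0.065), 3 (0.066) or 4 (0.125) or D2 replicate 1 (0.122), 3 (0.0624) or 4 (0.0899), with log2 differences of 0.32 to 0.38. Without the 4 libraries that stand apart, the Resilient difference was 0.39 (edgeR adjusted p = 0.0183).

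Marker sums of some other cell types also differed between the classes, and their part in the Scn1a difference was not tested. The sum of 9 interneuron markers was 325 to 521 CPM in the D1 libraries and 82.6 to 304 CPM in the D2 libraries, so these ranges did not overlap either. Of the 9, only Slc5a7 was at 0 in any library, in 1 D2 Susceptible library, as were Chrm4 among the D1 MSN markers and P2ry12 among the microglial ones. Among them, Sst averaged 274 ± 53.6 CPM in D1 Control against 92.4 ± 55.7 CPM in D2 Control (SD, n = 5). Pvalb, the marker of fast-spiking interneurons, averaged 17.2 ± 2.19 CPM and 4.45 ± 4.44 CPM. The sum of 6 glutamatergic neuron markers was 510 to 982 CPM in D1 and 174 to 574 CPM in D2, and that of 6 markers shared by both MSN classes was 4786 to 5919 CPM and 5749 to 7595 CPM. Sums for 5 endothelial markers were 12.3 to 34.5 CPM in D1 and 57.5 to 314 CPM in D2, and for 2 markers of oligodendrocyte precursors 2.26 to 9.13 CPM and 6.33 to 16.4 CPM. The oligodendrocyte sum was 383 to 998 CPM in D1 and 433 to 1894 CPM in D2, the astrocyte sum 245 to 688 and 269 to 611 CPM, and the microglial sum 22.6 to 71.1 and 25.6 to 65.8 CPM. The class markers themselves summed to 1736 to 2609 CPM in D1 libraries and 281 to 1858 CPM in D2 libraries for 7 D1 MSN genes, and to 1120 to 2771 CPM and 4867 to 12799 CPM for 5 D2 MSN genes.

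The D1 against D2 comparison called 2 members in Control libraries, where 8.3% of all genes tested were called. In Resilient libraries it called 1 member, where 6.65% of genes were called. In Susceptible libraries it called 5, where 23.9% of genes were called. Averaged over the 3 stress groups it called 3, Scn1a, Scn3b and Scn4b, against 29.3% of all genes. The 3 averaged calls were not lost on leaving out any 1 of the 30 libraries.

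**Figure D3:**
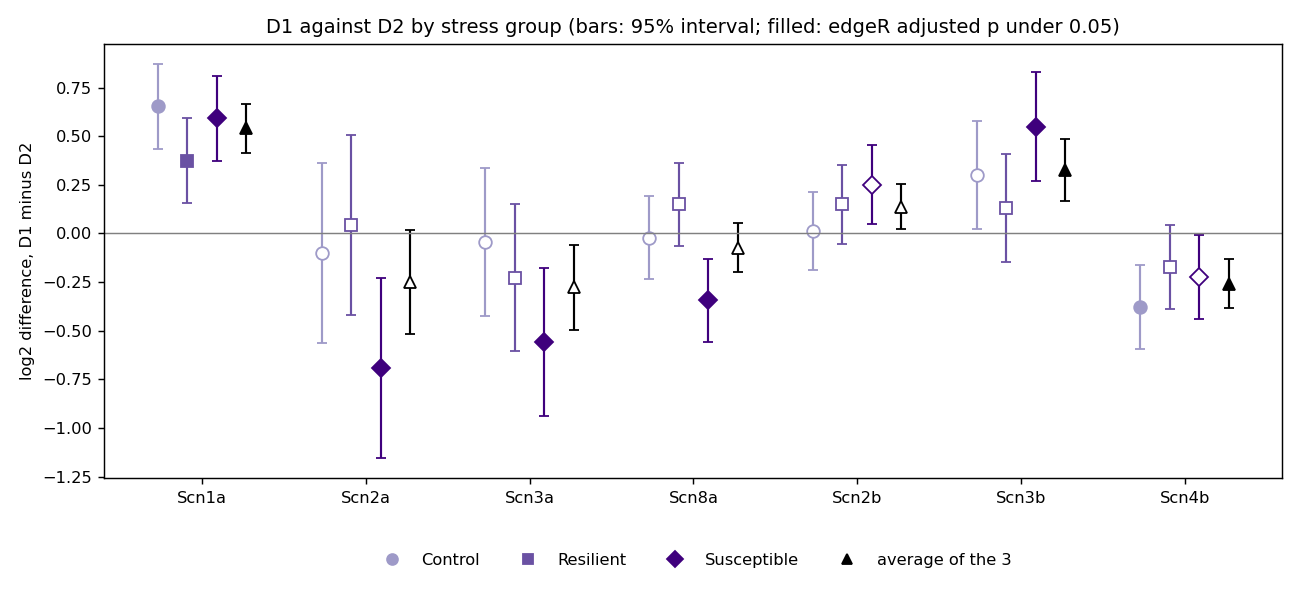
D1 minus D2 log2 difference (vertical axis) for each subunit (horizontal axis) in Control, Resilient and Susceptible libraries and averaged over them, with bars for the 95% interval from the SE and filled symbols where the edgeR adjusted p was under 0.05. Scn1a is above 0 in each, at 0.65, 0.37 and 0.59, while Scn4b is below 0 in each.

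Scn3b, which encodes the beta3 subunit, was the other member higher in D1. Its D1 libraries ran from 125 to 166 CPM with a median of 149 CPM, and its D2 libraries from 54.2 to 147 CPM with a median of 126 CPM. The ranges overlap, though 14 of 15 D1 libraries exceeded the D2 median. In D1 Control it was at 150, 139, 143, 150 and 146 CPM, and in D2 Control at 126, 128, 132, 84.0 and 122 CPM, so these groups did not overlap. D1 Susceptible, at 143, 166, 153, 137 and 164 CPM, lay above D2 Susceptible, at 54.2, 102, 127, 107 and 132 CPM, again without overlap. The share of all genes that separate such groups of 5 libraries was not counted. The averaged log2 difference was 0.33 with an SE of 0.08 (adjusted p = 0.0029, edgeR). In Susceptible libraries it was 0.55 (edgeR adjusted p = 0.0061), in Control 0.30 (0.231) and in Resilient 0.13 (0.846). Without D2 Susceptible replicates 1 and 2 the Susceptible value was 0.34 (edgeR adjusted p = 0.0296), and the Control value of 0.31 passed the threshold (0.0152), when calls over all genes in Control rose from 1608 to 3190.

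Scn4b, the beta4 subunit gene, was the member higher in D2. Its levels were 970, 985, 823, 1030 and 945 CPM in D1 Control against 1438, 1332, 1342, 1093 and 971 CPM in D2 Control. D2 replicate 5 lay within the D1 range and the other 4 D2 libraries lay above all 5 D1 libraries. Over all groups, D1 libraries ran from 823 to 1214 CPM and D2 libraries from 971 to 1601 CPM, with 8 D2 libraries above every D1 library. The averaged log2 difference, D1 minus D2, was -0.26 with an SE of 0.06 (adjusted p = 0.0025, edgeR). In Control it was -0.38 (edgeR adjusted p = 0.0283), in Resilient -0.17 (0.558) and in Susceptible -0.22 (0.141). The Control call was lost without D1 Control replicate 3 (-0.33, edgeR adjusted p = 0.106) or 5 (-0.38, 0.0623), without D2 Control replicate 1 (-0.32, 0.101), 2 (-0.35, 0.076) or 3 (-0.35, 0.0727), and with no filter on low counts (-0.36, 0.0509).

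Scn2b, which encodes the disulfide-linked beta2 subunit, spanned 1.80-fold from the lowest to the highest library. D1 libraries held 510 to 593 CPM and D2 libraries 329 to 571 CPM, and all 15 D1 libraries exceeded the D2 median of 503 CPM. Its averaged log2 difference of 0.14 (95% interval from the SE, 0.02 to 0.25) did not pass (edgeR adjusted p = 0.0795). Without D1 Susceptible replicate 1, D2 Susceptible replicate 3 or D2 Susceptible replicate 5 it passed in turn, with 0.16 each time (edgeR adjusted p = 0.0453, 0.0328 and 0.0272). The same omissions called it in the Susceptible comparison, where the log2 difference was 0.25 (0.0728) and became 0.30 (0.0468), 0.32 (0.0211) and 0.33 (0.0165).

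The alpha subunits Scn2a, Scn3a and Scn8a were called between the classes in the Susceptible comparison, all lower in D1, and in neither of the other 2 stress groups. The difference in class effect between stress groups was itself called for none of them. Scn2a stood at 646, 486, 470, 377 and 369 CPM in D1 Susceptible and at 1301, 1068, 413, 565 and 445 CPM in D2 Susceptible. Scn3a stood at 118, 78.7, 78.7, 63.1 and 65.3 CPM against 168, 170, 75.9, 99.0 and 79.9 CPM. Scn8a stood at 408, 333, 346, 317 and 384 CPM against 559, 548, 360, 428 and 375 CPM. In each case D2 replicates 1 and 2 were the 2 highest. The other 3 D2 libraries lay within the D1 range, except that D2 replicate 4 also lay above every D1 Susceptible library for Scn8a. The log2 differences were -0.69 for Scn2a (edgeR adjusted p = 0.034), -0.56 for Scn3a (0.0362) and -0.34 for Scn8a (0.0218). Without D2 replicates 1 and 2 they were -0.0017 (0.998), -0.07 (0.868) and -0.10 (0.602), and none was called. The comparison then called Scn1a, Scn3b and Scn4b, the last at -0.35 (edgeR adjusted p = 0.0342).
Leaving out single libraries also ended these calls. Scn2a and Scn3a lost theirs without any 1 of D1 Susceptible replicates 2 to 5 (edgeR adjusted p = 0.0546 to 0.0954), with log2 differences of -0.70 to -0.62 for Scn2a and -0.55 to -0.48 for Scn3a. They also lost them without D2 Susceptible replicate 1 (Scn2a -0.39, edgeR adjusted p = 0.215; Scn3a -0.38, 0.169) or 2 (Scn2a -0.52, 0.135; Scn3a -0.37, 0.172). Scn8a lost its call without D1 Susceptible replicate 2 (-0.32, edgeR adjusted p = 0.0533) or 4 (-0.30, 0.0611) or D2 Susceptible replicate 1 (-0.24, 0.119) or 2 (-0.25, 0.114). Averaged over stress groups, Scn3a gave -0.28 (edgeR adjusted p = 0.0626), Scn2a -0.25 (0.178) and Scn8a -0.07 (0.423), and none was called; Scn3a passed without D1 Control replicate 5 (0.0471), D1 Susceptible replicate 1 (0.0211), D2 Susceptible replicate 3 (0.0211) or 5 (0.0265).

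No member passed the edgeR test in a comparison of stress groups. Of the 6 such comparisons within a class, 0 called a member, where 0.0516% of genes were called in D2 Susceptible against Resilient, 0.00516% in D2 Susceptible against Control and 0 in the other 4. At an unadjusted p under 0.05 there were 4 members in D2 Susceptible against Resilient, 3 in D2 Susceptible against Control, 1 in D1 Resilient against Control and 0 in the other 3. Over all genes the shares at that threshold were 19.1%, 15.7% and 2.60% in the first 3 of these comparisons. DESeq2 called 2 in D2 Susceptible against Resilient, and voom with sample quality weights called 1 in D1 Resilient against Control; neither tool called a member in the other stress comparisons. In the same comparisons DESeq2 called 976 of 19330 genes and voom 180 of 19368.
In D2 Susceptible against D2 Resilient, Scn2a was 0.83 higher on the log2 scale with an SE of 0.24 (edgeR adjusted p = 0.0797) and Scn8a 0.46 higher with an SE of 0.11 (0.0586). DESeq2 called both, at 0.0309 and 0.00921. Scn8a in D2 Resilient was at 340, 330, 336, 329 and 313 CPM, below every D2 Susceptible library. Its D2 Control libraries, at 348, 341, 348, 486 and 366 CPM, also lay above the Resilient ones. That gap was narrow, with the lowest Control library at 340.7 CPM and the highest Resilient one at 339.7 CPM. The Resilient minus Control log2 difference was -0.20 and was not called (edgeR adjusted p = 0.99994). For neither separation was the share over all genes counted. In D2 Susceptible against D2 Resilient, Scn3a gave 0.47 (edgeR adjusted p = 0.179) and Scn3b -0.35 (0.17). Without D2 Susceptible replicates 1 and 2 the same values were 0.15 for Scn2a, 0.23 for Scn8a, -0.0062 for Scn3a and -0.13 for Scn3b. Without D2 Susceptible replicate 3 alone, edgeR called Scn8a (0.00867), Scn2a (0.0123) and Scn3a (0.0439), and without replicate 4 or 5 it called Scn8a (0.0373 and 0.0124) and Scn2a (0.0485 and 0.0172). Leaving out replicate 3, 4 or 5 also raised the calls over all 19368 genes from 10 to 1946, 404 and 1570.
Against D2 Control, the D2 Susceptible log2 difference was 0.61 for Scn2a (edgeR adjusted p = 0.218), 0.56 for Scn3a (0.189) and 0.27 for Scn8a (0.242). Without D2 Susceptible replicates 1 and 2 these became -0.07, 0.08 and 0.03. Scn3a passed without D2 Susceptible replicate 3, at 0.69 (edgeR adjusted p = 0.0418), when 819 genes were called in place of 1.

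Those 2 libraries had a pattern of their own across the members. Scn2a averaged 1184 CPM in D2 Susceptible replicates 1 and 2 and 474 CPM in replicates 3 to 5, Scn3a 169 and 84.9 CPM, and Scn8a 553 and 388 CPM. For these 3 alpha genes both libraries lay above all 28 others. Scn2b, at 329, 392, 554, 497 and 569 CPM over the 5 libraries, averaged 361 and 540 CPM, and both libraries lay below all 28 others, whose lowest was 444 CPM. The share of all genes for which both libraries lay above or below all 28 others was not counted. Whether such positions are particular to the members is therefore unknown. Scn3b averaged 77.9 and 122 CPM, Scn4b 1098 and 1427 CPM, and Scn1a 44.6 and 46.9 CPM. These libraries also detected the fewest genes, and the oligodendrocyte marker sum was 1454 to 1894 CPM in them and 817 to 1051 CPM in replicates 3 to 5. The D1 MSN marker sum was 516 to 637 CPM against 281 to 368 CPM, and the endothelial sum 226 to 314 CPM against 188 to 218 CPM. Reads outside genes made up 10.4% to 11.1% against 5.38% to 7.87%. The part of any of these in the pattern was not tested.

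**Figure D4:**
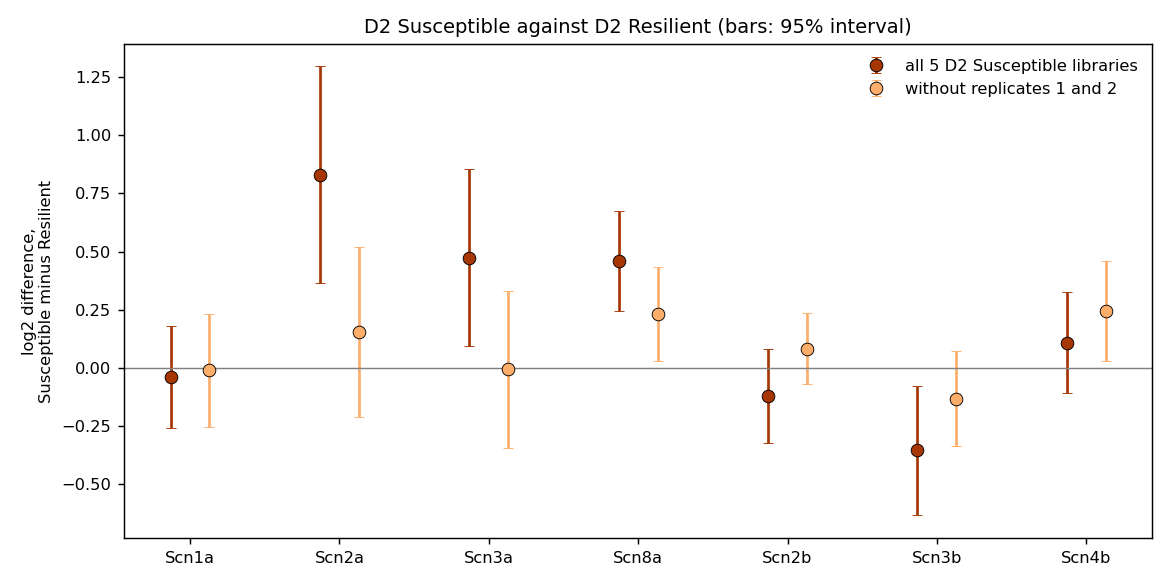
D2 Susceptible minus D2 Resilient log2 difference (vertical axis) for each subunit (horizontal axis), from all 5 D2 Susceptible libraries and without replicates 1 and 2, with bars for the 95% interval from the SE. Scn2a falls from 0.83 to 0.15 and Scn3a from 0.47 to -0.0062 when the 2 libraries are left out.

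**Figure D5:**
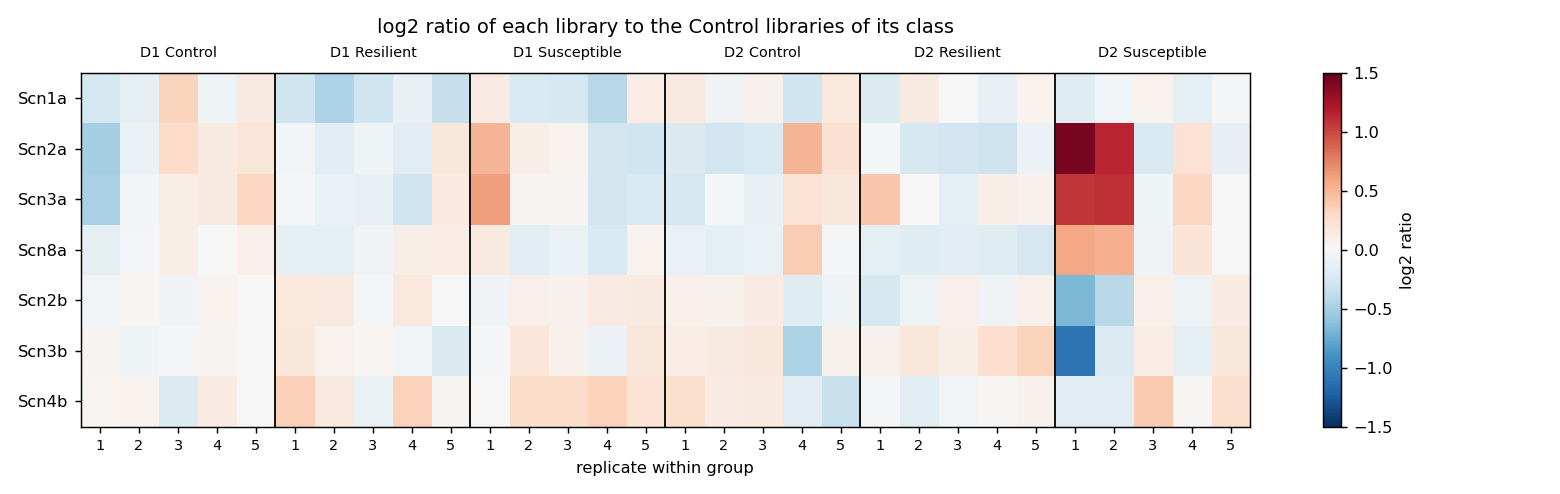
Log2 ratio of every library (columns, by group and replicate) to the mean log2 CPM of the Control libraries of its class, for each subunit (rows). D2 Susceptible replicates 1 and 2 are red for Scn2a, Scn3a and Scn8a and blue for Scn2b and Scn3b.

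In D1, Scn1a was lowest in the Resilient group, at 61.2 ± 5.48 CPM against 76.1 ± 12.6 CPM in Control (SD, n = 5). The groups overlapped and the log2 difference of -0.31 did not pass (adjusted p = 1, edgeR), while voom called it at -0.33 (adjusted p = 0.0262). Scn4b in D1 Susceptible, at 954, 1148, 1149, 1203 and 1092 CPM, had a log2 difference of 0.22 from Control (adjusted p = 1, edgeR). The difference between the classes in their response to stress was tested directly in 3 interaction comparisons, in which 0 genes and 0 members were called. For Susceptible against Resilient, 3 members had an unadjusted p under 0.05, Scn8a (-0.49, D1 change minus D2 change), Scn2a (-0.73) and Scn3b (0.42), with edgeR adjusted p of 0.253, 0.363 and 0.392. Over all genes, 12.4% had an unadjusted p under 0.05 there. Without D2 Susceptible replicates 1 and 2 these were -0.26, -0.05 and 0.21.

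Other sodium channel genes and the proteins that place channels at the axon initial segment gave a wider view. Of 7 other sodium channel genes tested, 2 were called higher in D1 and 0 lower averaged over stress groups, where 29.3% of all genes were called. Scn7a was among the 2, higher by 2.04 on the log2 scale (edgeR adjusted p = 0.0455), although it reached at most 0.63 CPM in any library. Nalcn, a sodium leak channel gene, was at 123 to 201 CPM and gave 0.13 (0.104).
Of 15 channel partner genes, 7 were higher in D1 and 2 lower in the averaged comparison, where 29.3% of all genes were called. Those higher included Bace1 (0.27, edgeR adjusted p = 7e-06), the protease that cleaves beta subunits, Nrcam (0.36, 2.2e-05) and Tnr (0.50, 3.9e-05). Nfasc (0.35, edgeR adjusted p = 9.9e-05), which encodes the adhesion protein neurofascin, was also higher. So were Fgf12 (0.57, edgeR adjusted p = 0.00023) and Fgf13 (0.31, 0.00013), which encode intracellular factors that bind the alpha subunit tail. Fgf11 (0.10, edgeR adjusted p = 0.244) and Fgf14 (0.07, 0.442) were not called. Ank3, the gene of ankyrin G, was lower in D1 at -0.41 (0.043), and Nedd4l, a ubiquitin ligase that removes channels from the membrane, at -0.11 (0.04). In Control 5 partners were higher and 0 lower, in Resilient 1 and 0, and in Susceptible 7 and 1, the last being Ank3 at -0.99. The shares of all genes called there were 8.3%, 6.65% and 23.9%. Ank3 in D2 Susceptible ran from 441 to 1597 CPM. Without D2 Susceptible replicates 1 and 2 it was not called, at -0.14 averaged (edgeR adjusted p = 0.366) and -0.19 in Susceptible (0.633). Partner calls in Susceptible were then 4 higher and 0 lower, and averaged they were 7 and 1. No partner was called in a stress comparison.

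Across the 30 libraries, which share prep and class structure, some members moved together. Scn2a and Scn3a had a Spearman rho of 0.83, and 0.79 over the 28 libraries without D2 Susceptible replicates 1 and 2. Scn1a and Scn3b had 0.73 (0.69 without those 2), and Scn2a and Scn2b -0.56 (-0.46). Among 8859 genes searched, the one closest to Scn1a in rank was Gpr26 (rho 0.93), to Scn2a Clcn4 (0.94), to Scn3a Kif5b (0.92), to Scn2b Rab15 (0.91), to Scn3b Prepl (0.93) and to Scn4b Cd4 (0.89). Gpr26, like Scn1a, was higher in D1, at a mean of 107 CPM against 49.8 CPM in D2. Because Gpr26 was picked for its rank match to Scn1a in these libraries, this is no separate result.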

How the data were processed

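Raw gene-level read counts, not normalized, were deposited for each library, and the authors' table of the whole series matched the files of all 30 libraries. HISAT2, HTSeq and the build GRCm38/mm10 come from the submitters' processing notes; for versions, annotation release and strand setting, nothing is stated (not given in the sources used here). Libraries were made from 10 ng RNA with the SMART-Seq v4 kit, per the labels' protocols, from RNA of integrity number above 8. Lines for unassigned reads, 10.1% to 53.3% of reads, stayed out of library sizes and tests. Reads with several alignments were 2.96% to 11.8%.

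Genes were kept with filterByExpr (minimum count 10, total 15), leaving 19368 of 55335, and were scaled by TMM. The quasi-likelihood test of edgeR 4.0.16 (R 4.3.3) was fitted to 6 groups over 30 libraries, with 13 comparisons, each adjusted by Benjamini-Hochberg over all genes (threshold 0.05). The scripts were tested on simulated data. Sequence comparisons and coordinates come from GENCODE M21. The named genes are the 7 members, other sodium channel genes (some not reported here), 15 channel partners, the marker lists and, for each member but Scn8a, its nearest gene by Spearman rho among genes with a mean of at least 10 CPM. Members and lists were chosen with earlier results of these data known. Alternatives were DESeq2 1.42.0, its size factors, no filter, only the groups compared, a replicate block, voom with quality weights (limma 3.58.1), and leaving out each library; after the data were seen, leaving out D2 Susceptible replicates 1 and 2, alone or with replicate 1 of D1 Susceptible and replicate 5 of D2 Resilient. One D2 MSN marker was not analysed here. The deeper the library the smaller the counting error, and with at least 810 counts per member and library, the spread between pools sets the precision.

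Same-numbered libraries did not deviate together (correlations -0.168 to 0.078, none of 75 pairs over 0.1), so replicate numbers were not treated as pairing.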

Additional observations from a re-analysis of the deposited data

Results flagged for a closer look

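Of 42 groups of 5 libraries examined, 3 held a library far from the others; chance gives about 1 in 20. Scn3a in D1 Susceptible replicate 1 was at 118.407 CPM, with the others at 63.1 to 78.7 CPM. In D2 Control replicate 4, Scn8a was at 485.652 CPM, with the others at 341 to 366 CPM, and Scn3b was at 84.0003 CPM, with the others at 122 to 132 CPM.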

How the results depend on the processing

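The Scn1a, Scn3b and Scn4b differences between the classes averaged over stress groups kept their call under every alternative run. The number of members called in D1 against D2 Susceptible moved from 5 to 3 with no filter, 1 with only the groups compared, 3 with voom, 3 without D2 Susceptible replicates 1 and 2 and 2 without the 4 libraries that stand apart. In D1 against D2 Control it was 1 with no filter, in D2 Susceptible against Resilient 2 with DESeq2 and in D1 Resilient against Control 1 with voom. Leaving out 1 library at a time gave 1 to 2 members in Control, 0 to 1 in Resilient, 2 to 6 in Susceptible and 3 to 5 averaged, 0 to 1 for D2 Susceptible against Control and 0 to 3 against Resilient. Directions reversed for Scn2a, Scn3a and Scn8a alone: Scn2a in D2 Susceptible against Control was -0.071 without D2 Susceptible replicates 1 and 2 and -0.070 without the 4 libraries, and Scn3a against Resilient -0.0062 and -0.025. With voom, Scn2a was 0.010 in the Susceptible class comparison and 0.083 averaged, and Scn8a averaged was 0.024 (0.013 without D2 Susceptible replicates 1 and 2). The cause of these shifts was not tested.

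With the replicate number as a block, 4 members were called in D1 against D2 Susceptible (Scn2a -0.66, edgeR adjusted p = 0.0571), and the other comparisons kept their number of calls. Over all genes, counts called ranged from 0 to 1946 in D2 Susceptible against Resilient (main 10), 0 to 819 against Control (1), 989 to 5511 in D1 against D2 Control (1608), 963 to 3412 in Resilient (1288), and 925 to 6064 in Susceptible (4621). Where the main count was 0, the highest was 3 for D1 Susceptible against Control, 180 for D1 Resilient against Control, 14 for D1 Susceptible against Resilient, 5 for D2 Resilient against Control, and 5, 160 and 161 for the interactions. Depth did not limit the members, each with at least 810 counts in every library; sequence shared by Scn1a, Scn2a and Scn3a was not tested as a limit.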
